A study of Mus musculus with 103 samples.

Results

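Sperm leaving the testis through the rete testis were compared with sperm stored in the cauda epididymis by the messenger RNA of the embryos they gave. The 2 groups were 22 embryos made with sperm heads from the rete testis and 20 made with sperm heads from the cauda epididymis, both from males fed a Control diet, so 42 of the 82 head and 21 whole-sperm embryos of the series. Embryos were assigned by the label of the injected sperm, and all 7894 genes of the deposited table were compared. All embryos were of the FVB strain, came from oocytes of females fed a Control diet, were made by intracytoplasmic sperm injection (ICSI), the direct injection of a sperm or its head into an oocyte, and were collected at the 2-cell stage 28 hours later as single-embryo libraries. Set beside them were 23 embryos of rete heads and 17 of cauda heads from males fed a Low Protein (LP) diet, and 12 embryos of rete whole sperm and 9 of cauda whole sperm. For whole sperm the diet of the males is given as Control only in the header of the table, which also writes the rete source as Test.

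Sperm are complete in shape when they reach the rete testis, and on the way through the epididymis they gain motility and take up proteins and small RNAs from the epithelium. Injecting a head alone brings in the nucleus with what adheres to it and leaves out the tail. In the mouse the 2-cell stage is when the embryo's own genome is switched on in its main wave, with a burst of MERVL-linked genes, genes driven by the endogenous retrovirus MERVL, followed by genes for ribosome production, while transcripts stored in the oocyte are broken down. A library of such an embryo therefore holds both kinds of RNA.

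Levels are in CPM, a gene's reads once every library is set to one common size, and differences are log2 fold changes of rete minus cauda on the scale of log2(CPM + 1), given ± standard error, with other spreads as SD. Sequencing depth, read off the step between low values, was 612848 to 2470500 reads in rete and 548816 to 1768761 reads in cauda embryos, so that 1 read was worth 0.405 to 1.82 CPM. Genes at 1 CPM or more numbered 7614 ± 184 in rete embryos (n = 22) and 7632 ± 168 in cauda embryos (n = 20). The mean log2(CPM + 1) of 65 MERVL-linked and 2-cell genes was 6.03 to 8.69 in rete and 6.42 to 8.27 in cauda embryos, so markers of the labelled stage were present in all of them. The labels name neither fathers nor days of injection, so p-values measure the spread between embryos only, and embryos of 1 male or 1 day cannot be told apart from a group.

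Akirin2, Rac1 and Zmynd19 were higher in embryos of rete heads than in embryos of cauda heads, and no gene was lower past the threshold (limma adjusted p under 0.05 over 7894 genes). The 3 genes are 0.038% of those tested, and their log2 fold changes were 0.82 to 1.35. Without a correction for the number of genes, 1745 genes (22.1%) had a p under 0.05, of which 456 (5.78%) were higher and 1289 (16.3%) lower in rete embryos. Over all genes 43.3% had a positive and 56.7% a negative log2 fold change, and the median was -0.10. Median-of-ratios scaling moved that median to 0.01 and the split to 701 higher and 991 lower (12.6%), and the medians of gene lists below, given unscaled, move up with it by about as much.

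Akirin2 encodes a nuclear protein that joins transcription factors to chromatin remodelling complexes in mouse cells and, in human cells, carries proteasomes into the nucleus. It lies on chr4:34550615-34566965 (GRCm38.p6). In rete embryos it ran from 116 CPM at the lowest through a median of 164 to 584 CPM at the highest, against 28.6, 76.9 and 224 CPM in cauda embryos. All 22 rete embryos lay above the cauda median, and 17 of 20 cauda embryos lay below the lowest rete embryo, so the groups overlapped only through the 3 highest cauda embryos. The means were 225 ± 138 CPM in rete and 88.7 ± 51.1 CPM in cauda embryos (log2 fold change 1.35 ± 0.23, limma adjusted p = 0.00054).

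Zmynd19 encodes a zinc-finger protein known to bind the receptor for melanin-concentrating hormone, and lies on chr2:24949777-24960870. Its lowest, median and highest levels were 118, 198 and 326 CPM in rete embryos and 66.2, 106 and 187 CPM in cauda embryos. Here too all 22 rete embryos lay above the cauda median, and 13 of them above every cauda embryo. It averaged 204 ± 55.5 CPM in rete and 118 ± 42.7 CPM in cauda embryos (0.82 ± 0.18, limma adjusted p = 0.0323).

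Rac1, a small GTPase that governs the actin cytoskeleton, lies on chr5:143505481-143528031. It had 86.5, 222 and 631 CPM in rete embryos (lowest, median, highest) and 27.6, 112 and 297 CPM in cauda embryos. The overlap was wider than for the other genes, with 20 of 22 rete embryos above the cauda median and 5 above every cauda embryo. Rac1 averaged 254 ± 142 CPM in rete and 116 ± 76.8 CPM in cauda embryos (1.27 ± 0.27, limma adjusted p = 0.0323). All 3 genes together were above their cauda medians in 20 of 22 rete embryos, against 5 of 20 cauda embryos.

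**Figure D1:**
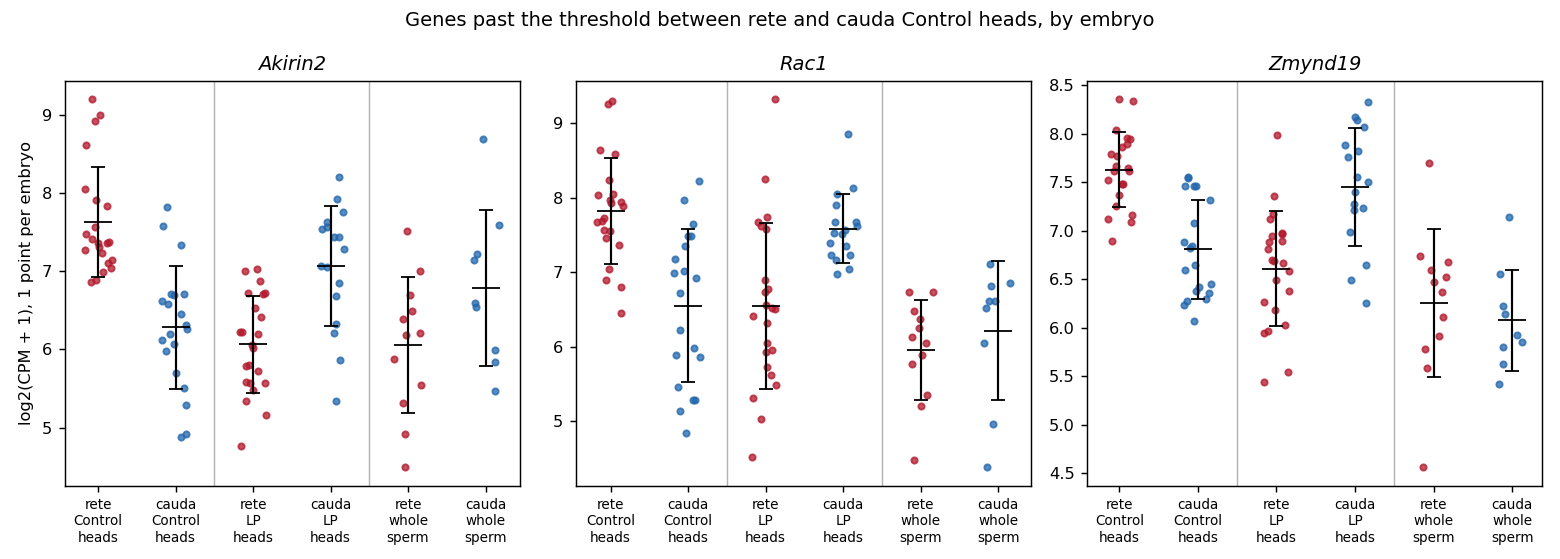
Level of Akirin2, Rac1 and Zmynd19 in each embryo of the series as log2(CPM + 1), 1 point per embryo, with rete left of cauda for Control heads, LP heads and whole sperm, and group mean ± SD as bars. In Control heads the rete embryos lie above the cauda embryos with some overlap, and in LP heads the means of all 3 genes are lower in rete than in cauda embryos.

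Akirin2 passed in all 15 other settings and with each of the 42 embryos left out in turn. Rac1 passed in 11 of the 15 settings, with its highest limma adjusted p, 0.246, when the stage index described below was a covariate. It also missed with the 42 Control head embryos fitted alone (limma adjusted p = 0.0541) and with median-of-ratios scaling (limma adjusted p = 0.11). The rank-sum test was the last of these (exact adjusted p = 0.0998). It passed in 25 of the 42 leave-outs, over which its log2 fold change was 1.18 to 1.36 and its limma adjusted p at most 0.104. Zmynd19 passed in 14 of the 15 settings and missed with the stage index as a covariate (0.73, limma adjusted p = 0.104). It passed in 23 of the 42 leave-outs, over which its log2 fold change was 0.785 to 0.863 and its limma adjusted p at most 0.0999. Certain single embryos thus moved these genes across the threshold, with a small change in size.

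The start regions of called genes are shown for the 2 of 3 that matched the table of promoters by symbol, Akirin2 and Zmynd19, and Rac1 is named only. The windows run from 250 bases before to 50 bases after the annotated start, from RefSeq on GRCm38.p6, plus strand, at chr4:34550365-34550664 for Akirin2 and chr2:24949527-24949826 for Zmynd19. Capitals mark the GC box (GGGCGG) and the CCAAT box (CCAAT), searched on both strands, so that a match on the minus strand reads CCGCCC or ATTGG.
Akirin2: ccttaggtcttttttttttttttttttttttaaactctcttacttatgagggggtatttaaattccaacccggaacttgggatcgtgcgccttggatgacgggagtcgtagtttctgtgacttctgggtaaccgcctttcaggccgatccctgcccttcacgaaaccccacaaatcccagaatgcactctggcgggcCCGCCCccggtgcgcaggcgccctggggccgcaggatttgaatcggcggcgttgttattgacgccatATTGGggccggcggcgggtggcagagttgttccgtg
Zmynd19: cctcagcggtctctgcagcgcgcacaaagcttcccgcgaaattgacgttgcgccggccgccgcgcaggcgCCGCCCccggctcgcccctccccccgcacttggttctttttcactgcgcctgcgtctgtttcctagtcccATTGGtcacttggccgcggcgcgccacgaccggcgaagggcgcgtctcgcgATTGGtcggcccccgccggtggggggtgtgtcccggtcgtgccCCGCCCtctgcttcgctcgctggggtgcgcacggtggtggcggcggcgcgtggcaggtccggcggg
Akirin2 had 1 GC box and 1 CCAAT box, and Zmynd19 had 2 of each, with no overlap between them. Over 32851 windows of all annotated genes, 35.7% held a GC box and 37.4% a CCAAT box, and the shares were 62.7% and 39.3% over windows of genes in the table. Neither window held a TATA box (TATAAA) or an E-box (CACGTG), which 13.6% and 7.2% of all windows and 7.1% and 10.3% of windows of genes in the table held. The GC content was 54.7% for Akirin2 and 73.3% for Zmynd19.

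Below the threshold on the positive side, the next smallest p-values belonged to Gm12633, a gene known only by a model number, and Siah2, an E3 ubiquitin ligase gene of hypoxia signalling. Siah2 ran through 468, 846 and 1670 CPM in rete embryos (lowest, median, highest) and 229, 538 and 1254 CPM in cauda embryos (0.77 ± 0.20, limma adjusted p = 0.167), with 21 of 22 rete embryos above the cauda median. It passed with array weights (limma adjusted p = 0.0185). Gm12633 had a median of 19.2 CPM in rete and 2.19 CPM in cauda embryos (1.89 ± 0.49, limma adjusted p = 0.167), and both groups had embryos at 0.1 CPM, the value written for 0.

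On the negative side 6 genes had the smallest p-values and none passed. Myg1, which encodes a 3′-to-5′ RNA exonuclease of nucleolus and mitochondria, came first, with 0.1, 22.01 and 64.6 CPM in rete embryos (lowest, median, highest) and 15.96, 55.6 and 97.7 CPM in cauda embryos. Only 1 rete embryo lay above the cauda median (-1.74 ± 0.41, limma adjusted p = 0.111). Tmed9, a cargo receptor of the early secretory pathway, averaged 67.4 ± 68.0 CPM in rete and 143 ± 82.6 CPM in cauda embryos (-1.38 ± 0.33, limma adjusted p = 0.128), with 20 of 22 rete embryos below the cauda median. The motor subunit gene Kif3a, whose kinesin builds cilia, averaged 11.2 ± 7.89 CPM in rete and 27.2 ± 12.9 CPM in cauda embryos (-1.40 ± 0.37, limma adjusted p = 0.167), with 21 of 22 below. The others were Fbxw9 (-1.63 ± 0.42), which encodes an F-box protein, the aldo-keto reductase gene Akr7a5 (-1.57 ± 0.39) and Sbno1 (-1.30 ± 0.33), a homologue of fly strawberry notch. Myg1 passed with a pseudocount of 5 (limma adjusted p = 0.0425) and Tmed9 with array weights (limma adjusted p = 0.0233). Myg1, Tmed9, Fbxw9, Akr7a5 and Sbno1 also passed when certain single embryos were left out, as given in the closing section.

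**Figure D2:**
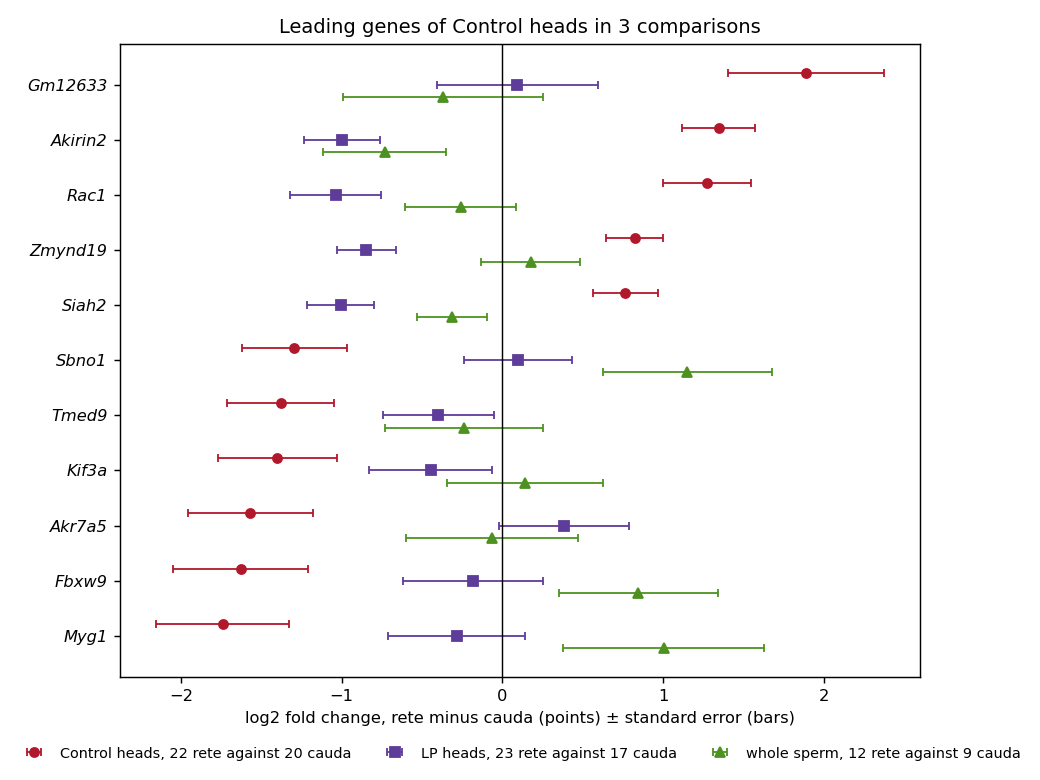
Log2 fold change, rete minus cauda, with its standard error, for the 11 genes of smallest p in Control heads, in Control heads (circles), LP heads (squares) and whole sperm (triangles). The points of Akirin2, Rac1, Zmynd19 and Siah2 lie right of 0 in Control heads and left of 0 in LP heads.

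Kars, the lysyl-tRNA synthetase gene, was chosen after its values were seen, because an exact two-sided rank-sum test over all genes called it. Kars ran through 82.5, 138 and 193 CPM in rete embryos (lowest, median, highest) and 126, 184 and 277 CPM in cauda embryos. Of 22 rete embryos 21 lay below the cauda median (exact rank-sum adjusted p = 0.0214), while limma gave -0.49 ± 0.20 (adjusted p = 0.17). The same rank-sum test called Akirin2 and Zmynd19 (exact adjusted p = 0.00446 each) and not Rac1 (exact adjusted p = 0.0998).

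Embryos of rete heads differed more among themselves than embryos of cauda heads. The SD of log2(CPM + 1) was larger in rete embryos for 71.6% of genes, with a median SD of 1.22 in rete and 1.00 in cauda embryos. The first principal axis held 36.1% of the variance over the 42 embryos, and at 1 end of it lay embryos with little mRNA for ribosome production and much oocyte mRNA. The ribosome biogenesis score, the mean log2(CPM + 1) over 107 genes of ribosome assembly and the nucleolus, was over 3 median absolute deviations below the median of the 82 head embryos in 6 of 22 rete Control embryos (numbers 4, 8, 12, 14, 15 and 17, at 3.33 to 4.82) and in 1 of 20 cauda Control embryos (number 23, at 4.39). The other 16 rete embryos lay at 5.29 to 7.49 and the other 19 cauda embryos at 6.09 to 7.71. With LP heads 1 of 23 rete and 1 of 17 cauda embryos lay that low. These counts are a description, and the difference between groups in them was not tested. They cover heads only, and low scores were common with whole sperm. There the score was 3.85 to 6.07 in 12 rete embryos (median 4.76) and 3.54 to 5.63 in 9 cauda embryos (median 4.39). Leaving out the 7 embryos brought the median SD to 0.98 in rete and 0.90 in cauda embryos, with a larger SD in rete for 61.5% of genes.

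**Figure D3:**
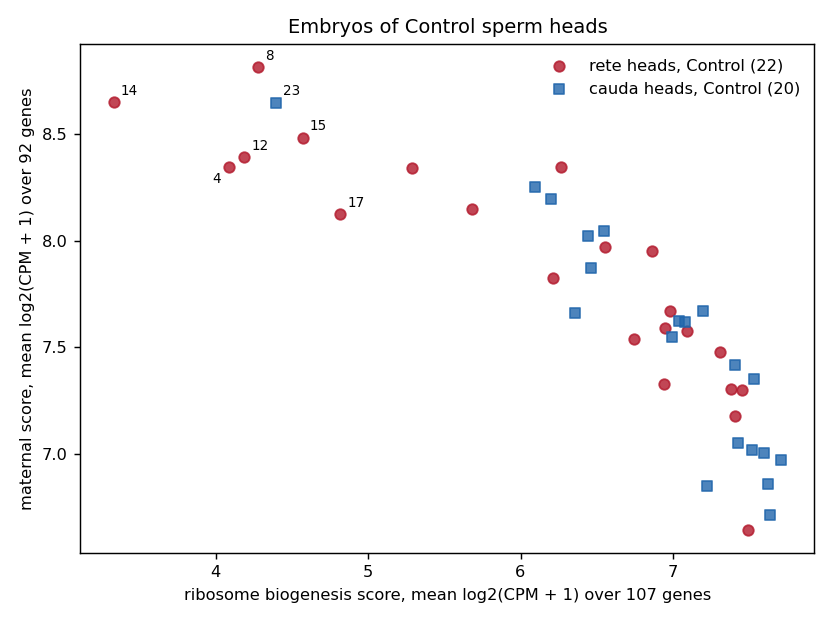
Ribosome biogenesis score (x axis, mean log2(CPM + 1) over 107 genes) against maternal score (y axis, mean over 92 oocyte transcripts) for 22 rete embryos (circles) and 20 cauda embryos (squares) of Control heads. The numbered embryos, 6 rete and 1 cauda, have scores of 3.33 to 4.82 on the x axis and stand apart at upper left.

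Because these embryos were mostly of 1 group, the called genes and the medians of the gene lists are also given without them, while single genes of the lists are given over all 42. LP heads share the fit, so it then also lacked the LP embryos that lay as low, 1 of rete and 1 of cauda heads. That bears on p-values and not on log2 fold changes. Akirin2, Rac1 and Zmynd19 were again called without the low embryos, and Arf6 and Alyref joined (5 genes, all higher, 0.0633% of those tested). Akirin2 then lay at 116 to 239 CPM in 16 rete embryos and at 28.6 to 189 CPM in 19 cauda embryos (1.08 ± 0.22, limma adjusted p = 0.0155). Arf6, a small GTPase of membrane traffic at the cell surface, and Alyref, an adaptor of mRNA export, had log2 fold changes of 0.98 ± 0.32 and 0.95 ± 0.37 over all 42 embryos and of 1.49 and 1.70 without the 7 (limma adjusted p = 0.0208 and 0.0155). Genes with an unadjusted p under 0.05 dropped to 527 without the 7 embryos, with 210 higher (2.66%) and 317 lower (4.02%) in rete embryos.

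A stage index, taken for each embryo as its maternal score subtracted from its ribosome biogenesis score, was also used as a covariate. Akirin2 (1.002, limma adjusted p = 0.0103) and Arf6 (1.44, limma adjusted p = 0.0103) then passed, as did Ythdf1, a reader of methylated adenosine in mRNA (1.38, limma adjusted p = 0.0428). Rac1 (0.96, limma adjusted p = 0.246) and Zmynd19 (0.73, limma adjusted p = 0.104) did not. Genes with an unadjusted p under 0.05 came to 143 higher (1.81%) and 136 lower (1.72%), so the counts on both sides were close. Medians of the gene lists described next lay near 0 with this covariate, at -0.06 for cytosolic ribosomal protein genes (1 of 80 lower at that p), -0.04 for proteasome subunits (0 of 33), -0.03 for RNA polymerase II and Mediator genes (0 of 93) and 0.04 for major wave genes (0 of 30). The index is computed from the ribosome biogenesis and maternal lists, so their own medians, -0.03 and -0.05, are set by it. Cytosolic ribosomal protein genes followed it too, with a mean log2(CPM + 1) of 4.48 in the 6 low rete embryos and 6.57 in the other 16. As the index comes from the same libraries, medians near 0 in the other lists are not an independent result.

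Messenger RNAs for making ribosomes had negative log2 fold changes in nearly all members, though none passed. Of 107 genes of ribosome biogenesis 104 were negative and 70 had an unadjusted p under 0.05 on the negative side (all genes 56.7% and 16.3%), with a median log2 fold change of -0.89 (all genes -0.10). Over the 22 rete embryos the score ran through 3.33, 6.65 and 7.49 (lowest, median, highest), and over the 20 cauda embryos through 4.39, 7.14 and 7.71. Utp14a, of the processome that matures the small subunit RNA, averaged 51.7 ± 44.2 CPM in rete and 99.2 ± 50.1 CPM in cauda embryos (-1.25 ± 0.36), with 21 of 22 rete embryos below the cauda median. Noc4l, which also serves small subunit assembly, averaged 80.0 ± 49.6 CPM in rete and 131 ± 61.0 CPM in cauda embryos (-1.05 ± 0.30). Both had a limma adjusted p of 0.167. Without the 7 low embryos the median of the list was -0.27. In that fit 9 of 107 genes had an unadjusted p under 0.05 on the negative side (all genes 4.02%). The 7 were picked by the low mean of these same genes, so a smaller median without them follows from that choice. CPM are shares of a library, so less of these mRNAs and more of other mRNAs in an embryo cannot be told apart.

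Cytosolic ribosomal protein genes, the parts of the ribosome itself, were negative in all 80 cases in Control heads, with 56 at an unadjusted p under 0.05 and a median of -0.73. Their mean log2(CPM + 1) ran through 2.95, 6.22 and 7.99 in rete embryos (lowest, median, highest) and 4.12, 6.98 and 7.58 in cauda embryos, so the highest embryo of all was a rete one. Without the 7 low embryos 78 of 80 were still negative (all genes 57.6%), with a median of -0.30 and 9 at an unadjusted p under 0.05 (all genes 4.02% lower). In LP heads, which share no embryo with the Control heads, 77 of 80 were negative (all genes 66.3%) with a median of -0.33 and 2 at an unadjusted p under 0.05 on the negative side (all genes 6.6%). In a fit without the embryos of low score of Control and LP heads alike, all 80 were negative in LP heads (all genes 60.3%), with a median of -0.43. Of these 45 had such a p (all genes 8.36%), from a spread that also lacked the low Control embryos. In whole sperm the sign was the other way, with 72 of 76 positive (all genes 57.5%) and a median of 0.62. Rps27 had 1.79, 43.8 and 198 CPM in rete Control embryos (lowest, median, highest) and 3.64, 103.3 and 201 CPM in cauda Control embryos (-1.56 ± 0.46, limma adjusted p = 0.167). Ribosomal protein genes have processed copies elsewhere in the genome, and how reads shared with those were counted is not given in the sources used here.

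Other lists of protein synthesis and turnover leaned the same way, to be read against 56.7% negative and 16.3% lower at an unadjusted p under 0.05 over all genes. Translation initiation factors had 40 of 47 members negative (median -0.44, 16 with an unadjusted p under 0.05 on the negative side and 1 on the positive). Eif2b4, of the factor that recharges eIF2 with GTP, averaged 199 ± 154 CPM in rete and 322 ± 159 CPM in cauda embryos (-1.22 ± 0.41). Cytosolic tRNA synthetases, the list that holds Kars, had 17 of 20 negative (median -0.48, 5 and 1), among them Qars for glutamine at 144 ± 93.3 CPM in rete and 230 ± 89.4 CPM in cauda embryos (-1.08 ± 0.36). Proteasome subunits, which break proteins down, had 29 of 33 negative (median -0.44, 14 and 0), with Psmb7 of the core at 58.4 ± 49.9 CPM in rete and 92.3 ± 45.5 CPM in cauda embryos (-1.03 ± 0.30). Without the 7 low embryos the medians were -0.14, -0.29 and -0.33 for these 3 lists, in this order, and proteasome subunits were negative in 31 of 33 cases. None of the genes of these lists passed.

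Transcripts stored in the oocyte leaned to the rete side. Of 92 maternal transcripts 75 were positive (all genes 43.3%), 21 had an unadjusted p under 0.05 on the positive side and 2 on the negative, and the median was 0.36. Without the 7 low embryos 72 were positive, with a median of 0.15 (all genes -0.06). Zbed3, of the subcortical complex that oocytes lay down for the embryo, had 1193, 7592 and 64510 CPM in rete embryos (lowest, median, highest) and 1283, 3232 and 21850 CPM in cauda embryos (1.04 ± 0.37, limma adjusted p = 0.167). The rete range thus reached above that of cauda embryos at its upper end only. Oosp3, which encodes a secreted protein of oocytes, averaged 850 ± 672 CPM in rete and 430 ± 160 CPM in cauda embryos (0.70 ± 0.24, limma adjusted p = 0.167), with 16 of 22 rete embryos above the cauda median.

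Genes of the early burst of embryonic transcription were not on 1 side. MERVL-linked and 2-cell genes had 33 of 65 positive (all genes 43.3%) and a median of 0.03. At an unadjusted p under 0.05, 4 were higher (6.15%, all genes 5.78%) and 10 lower (15.4%, all genes 16.3%), near the shares of all genes. Among them Trim43c, a member of a family of near-identical copies whose reads may be split, averaged 598 ± 448 CPM in rete and 928 ± 477 CPM in cauda embryos (-1.41 ± 0.54, limma adjusted p = 0.167). Genes of the later, major wave were negative in 24 of 30 cases (all genes 56.7%), with a median of -0.47 and 9 lower (all genes 16.3%) and 0 higher at that p. Median-of-ratios scaling left 3 of the 30 lower and 1 higher, 10% lower against 12.6% of all genes. Pdxk, the kinase that activates vitamin B6, had 0.1, 1014 and 2152 CPM in rete embryos (lowest, median, highest) and 164, 1486 and 2399 CPM in cauda embryos (-1.57 ± 0.55). Kdm5b, which removes methyl groups from lysine 4 of histone H3, averaged 471 ± 314 CPM in rete and 633 ± 214 CPM in cauda embryos (-0.86 ± 0.32). Without the 7 low embryos the medians were 0.14 for MERVL-linked and -0.10 for major wave genes.

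Lists of transcription and RNA processing were on the negative side by their medians, and over all genes 56.7% were negative and 16.3% lower at an unadjusted p under 0.05. Genes of RNA polymerase II, Mediator and the general factors were negative in 73 of 93 cases (median -0.42, 26 lower and 0 higher at that p). With median-of-ratios scaling 17 of them were lower (all genes 12.6%). Polr2b, the second largest subunit of the polymerase, averaged 138 ± 100 CPM in rete and 212 ± 95.6 CPM in cauda embryos (-1.11 ± 0.33). Spliceosome core genes were negative in 52 of 63 cases (median -0.41, 21 lower and 1 higher), with Sf3a3 at 49.6 ± 31.8 CPM in rete and 87.1 ± 41.9 CPM in cauda embryos (-1.04 ± 0.30). Nucleoporins and transport factors had 42 of 57 negative (median -0.29, 18 lower and 1 higher), with the scaffold nucleoporin gene Nup205 at 24.6 ± 19.5 CPM in rete and 44.5 ± 21.7 CPM in cauda embryos (-1.31 ± 0.37). RNA-processing and chromatin regulators had 7 higher and 13 lower of 56 (median -0.20). With median-of-ratios scaling 8 lay in each direction (14.3%, all genes 8.88% higher and 12.6% lower). Ybx1, whose cold-shock protein packages mRNA, was on the positive side of that list, with 556, 858 and 1487 CPM in rete embryos (lowest, median, highest) and 161, 663 and 1085 CPM in cauda embryos (0.70 ± 0.19, limma adjusted p = 0.167). On its negative side stood the chromatin remodeller gene Smarcad1, with 33.6 ± 25.4 CPM in rete and 56.0 ± 30.1 CPM in cauda embryos (-1.16 ± 0.34). The medians of these 4 lists without the 7 low embryos were -0.17, -0.27, -0.14 and -0.05, in this order. In the fit without these embryos 8, 9, 4 and 5 genes were lower at an unadjusted p under 0.05 (all genes 4.02%).

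Genes of energy supply lay closer to the shares of all genes. Oxidative phosphorylation genes encoded in the nucleus had 37 of 55 negative (67.3%, all genes 56.7%) and a median of -0.34, with 11 lower (20%, all genes 16.3%) and 2 higher at an unadjusted p under 0.05. Median-of-ratios scaling left 5 lower (9.09%, all genes 12.6%). Cox4i1, a subunit of cytochrome c oxidase, averaged 53.1 ± 54.3 CPM in rete and 90.3 ± 49.8 CPM in cauda embryos (-1.29 ± 0.39), while Ndufa4, also of the respiratory chain, averaged 79.7 ± 100 CPM in rete and 28.1 ± 18.1 CPM in cauda embryos (1.00 ± 0.34). Mitochondrial ribosomal proteins had a median of -0.27 (12 lower and 0 higher of 52), stress chaperone genes -0.38 (9 and 0 of 34), and cell-cycle and replication genes -0.29 (20 and 4 of 64). With median-of-ratios scaling 7, 5 and 16 genes of these lists were lower, in this order, and without the 7 low embryos their medians were -0.22, -0.13 and -0.19, against -0.16 for oxidative phosphorylation. The replication licensing gene Cdt1 averaged 118 ± 62.4 CPM in rete and 193 ± 74.6 CPM in cauda embryos (-0.87 ± 0.27), with 20 of 22 rete embryos below the cauda median. Hspa5, the chaperone of the endoplasmic reticulum, averaged 233 ± 171 CPM in rete and 398 ± 245 CPM in cauda embryos (-0.87 ± 0.30). Glycolysis, sterol synthesis and p53 response genes had medians of 0.00 (0.11 with median-of-ratios scaling), -0.12 and 0.03, with 2 lower and 0 higher of 14, 2 and 1 of 21, and 2 and 1 of 22, shares at or below those of all genes. These medians without the 7 low embryos were 0.13, -0.07 and 0.02.

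Imprinted genes, expressed from 1 parental copy, are of interest where groups are set apart by the sperm injected. For comparison, 43.3% of all genes were positive and 56.7% negative, with 5.78% higher and 16.3% lower at an unadjusted p under 0.05. Of 9 measured paternally expressed genes 6 were positive (median 0.32), and without the 7 low embryos the median was -0.08. Usp29, a paternally expressed deubiquitinase gene, averaged 115 ± 106 CPM in rete and 183 ± 118 CPM in cauda embryos (-1.20 ± 0.48, limma adjusted p = 0.17). Of 13 maternally expressed genes 6 were positive (median -0.19, and 0.09 without the 7 low embryos). Gnas, the stimulatory G protein gene of a complex imprinted locus, had 17.9, 75.1 and 416 CPM in rete embryos (lowest, median, highest) and 8.20, 27.3 and 297 CPM in cauda embryos (1.30 ± 0.36, limma adjusted p = 0.167), with 21 of 22 rete embryos above the cauda median. DNA methylation and imprint protection genes gave 1 higher and 1 lower of 18 (median -0.06, -0.05 without the 7 low embryos, and 0.05 after median-of-ratios scaling), led by Mbd4, a glycosylase that acts on damaged methylated sites (-0.71 ± 0.31), and Uhrf1, which brings the maintenance methylase to new DNA (0.70 ± 0.32). Pluripotency and first-lineage factors had 16 of 21 negative (median -0.48, 6 lower and 1 higher), among them the trophectoderm factor gene Tfap2c at 90.1 ± 62.4 CPM in rete and 147 ± 69.6 CPM in cauda embryos (-1.04 ± 0.37). Median-of-ratios scaling left 4 of the 21 lower (19.05%, all genes 12.6%), and without the 7 low embryos the median of that list was -0.02.

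Markers of cells that could come along with oocyte or sperm were few in the table. Of 32 cumulus and granulosa markers 4 were measured, and their mean log2(CPM + 1) was 4.34 to 6.82 in rete and 4.93 to 6.73 in cauda embryos. None of these 4 genes had an unadjusted p under 0.05, and their part in the results was not tested. Of 29 sperm and spermatid transcripts 3 were measured, of 20 testicular somatic markers 3, and of 31 epididymal epithelium markers 2. In each of these lists 1 member had a positive log2 fold change and the rest a negative one. The sperm marker Tekt2, of the sperm tail, averaged 17.5 ± 14.04 CPM in rete and 27.3 ± 19.7 CPM in cauda embryos (-0.60 ± 0.40), and the epididymal water channel gene Aqp9, also known in oocytes, averaged 51.3 ± 19.8 CPM in rete and 59.2 ± 20.1 CPM in cauda embryos (-0.23 ± 0.29). Gata1, a factor of Sertoli cells, averaged 140 ± 140 CPM in rete and 265 ± 163 CPM in cauda embryos (-1.76 ± 0.62, limma adjusted p = 0.167). It averaged 277.5 CPM in rete and 322.5 CPM in cauda LP embryos, and 13.4 and 5.12 CPM with rete and cauda whole sperm. Whether its mRNA came from testicular cells was not tested. Of the 4 replication-dependent histone genes, a class with near-identical copies within a histone type, 1 had an unadjusted p under 0.05, Hist1h2ao (-0.67 ± 0.32).

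The same comparison in LP heads and in whole sperm, which share no embryo with Control heads, did not give the same 3 genes on the same side. In LP heads 6 genes passed, all lower in rete embryos (0.076% of 7894), and in whole sperm none passed (0%, limma), with 662 of 7782 genes (8.51%) at an unadjusted p under 0.05. Akirin2 averaged 72.0 ± 30.4 CPM in rete LP and 150 ± 68.5 CPM in cauda LP embryos (-1.001 ± 0.24, limma adjusted p = 0.058). Rac1 averaged 127 ± 132 CPM in rete LP and 201 ± 80.0 CPM in cauda LP embryos (-1.04 ± 0.28, limma adjusted p = 0.185). Zmynd19 was among the 6 that passed, with 105 ± 45.1 CPM in rete LP and 189 ± 73.1 CPM in cauda LP embryos (-0.85 ± 0.18, limma adjusted p = 0.0216). With whole sperm their log2 fold changes were -0.73 ± 0.38, -0.26 ± 0.34 and 0.18 ± 0.31, in the order Akirin2, Rac1, Zmynd19.

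The difference between the Control and the LP comparison of heads was itself tested. It passed for 15 genes (0.19%), all with a positive source difference in Control and a negative one in LP heads. Akirin2 led (difference of log2 fold changes 2.35 ± 0.33, limma adjusted p = 2.03e-06), followed by Zmynd19 (1.67 ± 0.26, adjusted p = 1.58e-05), Siah2 (1.77 ± 0.29, adjusted p = 7.13e-05) and Rac1 (2.31 ± 0.39, adjusted p = 0.000157). Among the other 11 were Ybx1, Arf6 and Alyref, described above, the cell-cycle factor gene E2f1 and the splicing factor gene Srsf2. Against whole sperm the Control difference of Akirin2 differed by 2.08 ± 0.42 (limma adjusted p = 0.0188), and 68 genes passed that test (0.861%), 2 higher (0.0253%) and 66 lower (0.836%), but only 3 passed without embryos of few detected genes.

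Genes with an unadjusted p under 0.05 in Control heads were followed by sign. Of the 1745 genes 65.4% had the same sign in LP heads, where 58.7% of all genes had, and of the 1702 also measured in whole sperm 28.4% had the same sign there, where 40.5% of all genes had. Where both comparisons had such a p, 54 genes shared the sign and 42 did not with LP heads, and 13 shared it and 199 did not with whole sperm. Ribosome biogenesis genes had medians of -0.89 in Control heads, -0.09 in LP heads and 0.39 in whole sperm, and maternal transcripts 0.36, -0.02 and -0.09. Genes of the major wave had -0.47, -0.11 and 0.83, in the same order.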

How the data were processed

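Single-embryo libraries were made with a Nextera single-cell kit from 2-cell embryos lysed in TCL buffer, per the labels' protocols. Bowtie and mm10 are named in the submitters' processing notes, and not given in the sources used here is how reads were counted, on which annotation and whether by strand. All 7894 genes stood in 1 table that the authors deposited, with a column per embryo and no unit in the header. The deposited values were taken to be CPM, since an embryo's values added up to between 92.08 and 98.15% of the fixed library size, and 2.49% of values were 0.1, written for 0. A sorting column, a score deposited beside the gene names, was at least 5.00 throughout, so low genes had been removed. Within an embryo the low values rose in equal steps, which gave its depth. In Control heads only 84.3 to 89.0% of low values came out as whole reads (tolerance 0.001), so no count test was used. Gene positions came from RefSeq GRCm38.p6 by accession (7845), by symbol (39) or not at all (10), after 11 symbols stored as dates were restored.

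A single fit held the 82 head embryos (limma 3.58.1, R 4.3.3, values as log2(CPM + 1), mean-variance trend, robust moderation). Genes needed 5 CPM in at least 9 embryos, tests were two-sided, and p-values were adjusted by Benjamini-Hochberg with a threshold of 0.05. Whole sperm had a fit of its own, and source by preparation was tested over the whole series. The scale understates changes of low genes. No pair of the 42 embryos was near-identical (highest correlation 0.89). Scores are means of log2(CPM + 1) over a list. Python 3.11.15, numpy 2.4.6, pandas 2.3.3 and scipy 1.17.1 did the rest.

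Members, the 28 lists and tests were chosen with earlier results of these data known. Genes named are up to 12 per direction past the threshold, or the 6 of smallest p where none passed, the 5 of smallest p per direction, and up to 3 called members per list and direction, or the 2 of smallest p. Kars, Arf6, Alyref and genes called under single settings were named after their values were seen, and not every gene of the rule is described. Other settings were pseudocounts of 0.1 and 5, a stricter filter (10 CPM in 20 embryos) or none, quantile and median-of-ratios scaling, array weights, detected genes, log2 depth and a stage index (ribosome biogenesis minus maternal score) as covariates, embryos of few detected genes or low score left out, the 42 embryos alone, an exact rank-sum test, the replicate number as a block and each embryo left out, the last added after seeing the data.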

Additional observations from a re-analysis of the deposited data

Results flagged for a closer look

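The source difference of Control heads differed from that of LP heads for 15 genes by limma's test of the interaction (adjusted p under 0.05). The difference of log2 fold changes was 2.35 for Akirin2, 2.31 for Rac1, 1.67 for Zmynd19, 1.77 for Siah2, 2.77 for Pdxp, 1.85 for E2f1, 1.29 for Ybx1 and 2.54 for Alyref. It was 2.38 for B4galt6, 2.39 for Tfap2e, 1.56 for Suv39h2, 2.76 for Ptov1, 1.98 for Arf6, 1.95 for Srsf2 and 1.52 for Grsf1. All 15 were positive in Control and negative in LP heads. Pdxp, a phosphatase of active vitamin B6, averaged 67.7 CPM in rete and 37.1 CPM in cauda Control embryos, and 29.6 CPM in rete and 84.8 CPM in cauda LP embryos. Suv39h2, a methyltransferase of lysine 9 of histone H3, averaged 85.7 CPM in rete and 49.5 CPM in cauda Control embryos, and 43.8 CPM in rete and 71.3 CPM in cauda LP embryos.

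Against whole sperm, 11 of the named genes had a source difference that differed by the same kind of test, 2.08 for Akirin2, -2.75 for Myg1, -2.45 for Sbno1, -2.62 for Utp14a and -3.43 for Pdxk. It was -2.96 for Rps4l, -2.94 for Rps27, -2.91 for Nup155, -1.65 for Hsp90ab1, -3.52 for the glucose transporter gene Slc2a3 and -1.46 for the sterol synthesis gene Sqle. The limma adjusted p of these 11 was 0.0188 to 0.0497, mostly just under the threshold. Without embryos of few detected genes only 3 genes in all passed this test, against 68 with them. Whole-sperm libraries were also deeper, with a median of 2.81e+06 reads in rete and 4.09e+06 in cauda embryos, against 1.10e+06 and 1.11e+06 in Control heads. Rps4l is a near copy of other ribosomal protein genes, and its reads may be split.

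In the 9 embryos of cauda whole sperm, 1 stood apart from the rest by its gap to the nearest other embryo, at 412.3 CPM of Akirin2, and 1 by its number of genes at 1 CPM or more, 6696. Chance flags about 1 in 20 such groups, and 7 were looked at.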

How the results depend on the processing

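The count of 3 genes in Control heads was 17 with array weights (13 higher, 4 lower) and 5 without embryos of low ribosome biogenesis score, and 2 to 4 in the other settings. Leaving out single embryos gave 1 to 9. It was 9 without cauda 23, with Fbxw9, Sbno1, Akr7a5, Myg1, Nudt3 and Tmed9 lower (-1.90 to -1.39 on the log2 scale), 5 without rete 5 (Tmed9 and Myg1 lower) or rete 6 (Akr7a5 and Myg1), and 4 without cauda 10 (Tmed9) or rete 9 (Myg1). Only Akirin2 passed without cauda 1, 2, 4, 5, 7, 17 or 19 or rete 1, 4, 11, 12, 14, 23 or 24. Rac1 was also lost without cauda 13 or 18 or rete 8, and Zmynd19 without cauda 3, 6, 9 or 14 or rete 20 (adjusted p up to 0.104 in either). The LP count of 6 was 3 with median-of-ratios scaling, 11 without low-score embryos and 17 with the stage index. The count of source by diet, 15, was 30 and 41 in the last 2 of these settings. That of source by preparation, 68, was 114 with a pseudocount of 0.1 and 3 without embryos of few detected genes. The cause was not tested.

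Pairing of embryos by replicate number was not seen over whole profiles (same-number correlation -0.38 to 0.45 over 18 numbers, 8 of them over 0.1, 0 matching best with their own). A weaker pairing could not be seen that way. With the replicate block 3 genes passed in Control heads, 8 in LP heads, 0 in whole sperm, 16 for source by diet and 85 for source by preparation.

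Log2 fold changes that turned round were those of Usp29 (0.015 with the stage index), Hist1h3f (-0.021 with array weights, -0.14 with the stage index, -0.043 without low-score embryos), Amhr2 (0.34 with the stage index), Gja1 (0.012 without low-score embryos), Ldhc (0.087 and 0.17), Gata4 (0.059, 0.45 and 0.25) and Gpx6 (-0.48 and -0.052), in the same order of settings. None of these genes had passed. Depth limits values near 1 CPM, about 1 read.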
